A study of Mus musculus with 22 samples.

Results

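The normal difference between the right ventricle (RV) and the left ventricle (LV) was measured by bulk RNA sequencing in 5 sham-operated CD1 mice, an outbred strain. These mice were the controls of a study of neonatal pulmonary artery banding (nPAB), in which the artery leaving the RV is narrowed, here with a 30G needle. Sham surgery was done on postnatal day 1 and the hearts were taken 7 days later, on postnatal day 8. The 10 sham libraries, an LV and an RV library of each animal, were chosen from the 22 libraries of the series by their labels. The labels number the sham animals 9 to 13, and that number paired the ventricles. The other 12 libraries came from 6 nPAB animals operated on and killed at the same ages, also CD1 and with the same batch label. All values are normalized counts, that is, gene counts divided by a library size factor, and levels are compared between libraries for 1 gene at a time because they are not divided by gene length.

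The RV pumps blood to the lungs and the LV to the rest of the body. Before birth both chambers work at similar pressure, and after birth the resistance of the lung vessels falls while systemic pressure rises, so the LV comes to carry the larger load. The LV descends mainly from the first heart field, in which Tbx5 and Hand1 are active, and the RV and outflow tract from the second heart field, which passes through an Isl1-positive stage and uses Hand2. Natriuretic peptides, slow myosin and stretch-responsive proteins are known to follow wall load, and fibroblasts lay down the collagen matrix between the muscle cells.

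Whole reads recovered from the values gave 8.10 ± 0.640 M reads per LV library (SD, n = 5, range 7.11 to 8.80) and 8.61 ± 1.29 M per RV library (range 7.43 to 10.7). Both libraries of each sham animal had the same sex by Xist and Y-linked genes, 3 males and 2 females. Ventricular muscle genes were present: in every sham library Myl2, the ventricular regulatory light chain, was at least 123629 normalized counts, and the ventricular factor Irx4 was between 326 and 484. Neither passed between the ventricles in the paired limma test below (adjusted p = 0.325 and 0.898), so these genes do not tell LV from RV. Skeletal muscle markers summed to 11.2 to 31.2 in the LV and 19.95 to 50.01 in the RV, with Myod1 and Myh4 at 0, and lung, liver and thymus markers to 16.1 to 38.0 in the LV and 22.2 to 63.2 in the RV, with Nkx2-1 and Rag1 at 0. Atrial markers were present in all libraries and are given below.

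Of 13680 genes tested as a paired difference (log2 of the value plus 1, RV minus LV within an animal, limma), 272 passed at an adjusted p under 0.05, which is 1.99% of the genes tested. Of these, 160 were higher in the RV (1.17%) and 112 higher in the LV (0.819%), so that 58.8% of the calls were RV-high. The tables of the 2 ventricles were normalized separately, and each animal's differences were therefore centred on their median, a shift of 0.03 to 0.04 log2. Without that centring 207 genes were RV-high and 84 LV-high, 71.1% of the calls. The differences were small: the called RV-high genes had a median of 0.49 log2 and the LV-high genes of -0.29. The median over all tested genes was 0.00, but the centring itself sets that value close to 0. At least 2-fold differences were seen in 25 RV-high and 6 LV-high called genes. In 263 of the 272 genes all 5 animals differed in the same direction, and in 99 of them the 5 libraries of a ventricle lay wholly above the 5 of the other, against 261 such genes (1.91%) among all tested. Leaving out animal 9 left 81 RV-high genes and leaving out animal 13 left 88. The calls rested on limma's variance trend and robust options, without which no gene passed.

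The natriuretic peptide genes were higher in the LV. The gene of atrial natriuretic peptide, Nppa, stood at 137, 339, 124, 179.7 and 222 normalized counts in the LV of animals 9 to 13 in turn and at 42.5, 77.8, 51.6, 22.4 and 117 in their RV. Every LV library lay above every RV library, and Nppa was 3.51-fold higher in the LV (log2 difference -1.81 ± 0.23 SE, adjusted p = 1.11e-05). Nppb, which encodes B-type natriuretic peptide and adjoins Nppa on chromosome 4, was at 351, 523, 706, 1106 and 1118 in the LV and 154, 343, 434, 468 and 675 in the RV. Animals differed widely in Nppb, so the ventricles' ranges overlapped, but in each animal the LV was the higher (-0.92 ± 0.10 SE, adjusted p = 6.90e-07). Both code for proteins and lie close together in mm10 (gene bounds, Nppa: ENSMUSG00000041616, chromosome 4, 148000722 to 148002079; Nppb: ENSMUSG00000029019, chromosome 4, 147985788 to 147987205). The clearance receptor gene Npr3, which removes both peptides and also marks endocardium, went the other way, at 213 ± 45.5 normalized counts in the LV and 400.4 ± 22.0 in the RV (SD, n = 5; 0.90 ± 0.12 SE, adjusted p = 2.11e-05).

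**Figure D1:**
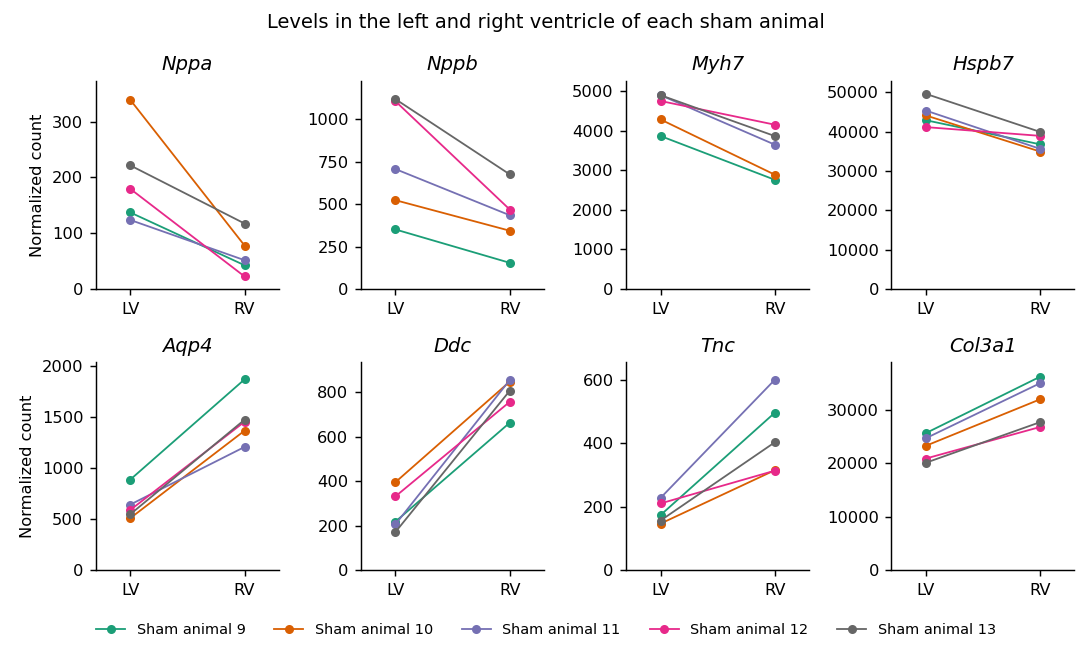
Normalized counts (vertical axes, starting at 0) of 8 genes in the LV and RV, with a line for each of the 5 sham animals. The lines of Nppa, Nppb, Myh7 and Hspb7 fall from LV to RV in all 5 animals, and those of Aqp4, Ddc, Tnc and Col3a1 rise in all 5.

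Xirp2, an actin-binding repeat protein of the intercalated disc and a marker named for this comparison, was at 5002, 5892, 2913, 3939 and 5089 in the LV and 2243, 2469, 2126, 1543 and 1963 in the RV. All LV libraries lay above all RV libraries, the mean difference was 2.22-fold, and yet the gene did not pass (-1.15 ± 0.16 SE, adjusted p = 0.0644). Its within-animal difference was -0.48 in animal 11 against -1.19 to -1.40 in the other 4. Without animal 11 the difference was -1.32 with an adjusted p of 1.03e-19, but animal 11 was picked out in these same values. Without animal 9, 10, 12 or 13 the adjusted p was 0.178 to 0.233. DESeq2 on all 5 animals gave 5.67e-09 against 0.0685 with edgeR, and limma without the variance trend and robust options gave 0.227. Of 21 tested stretch and hypertrophy genes 8 were higher in the LV and 0 in the RV, with a list median of -0.19, and 13 did not pass. Besides Nppa and Nppb they were Myh7, Nrap, Des, Cryab, Rcan1 and Mybpc2. Nrap, an anchoring protein of the myofibril ends, was at 4957, 4481, 5105, 5469 and 5884 in the LV and 3757, 3512, 4342, 4277 and 4552 in the RV (-0.37 ± 0.04 SE, adjusted p = 6.90e-07). Its LV was higher in all 5 animals, least in animal 11, although the ranges overlapped. Desmin (Des), the muscle intermediate filament, differed by -0.23 (adjusted p = 4.42e-05) and the calcineurin inhibitor Rcan1 by -0.47 (adjusted p = 0.0173). Skeletal actin Acta1 (-0.87, adjusted p = 0.340) and Ankrd1 (-0.11, adjusted p = 0.190) did not pass. The fast-type myosin-binding protein Mybpc2 (-0.87, adjusted p = 0.0190) and Cryab lost their calls with fewer animals: Mybpc2 without animal 9, 10 or 13 (adjusted p = 0.0833 to 0.155) and Cryab without animal 13 (adjusted p = 0.0525).

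Most sarcomere genes that passed were slightly higher in the LV. Of 31 tested, 8 were LV-high, 2 were RV-high and 21 did not pass, with a median of -0.14, and their summed level was 990645 to 1156370.0 in the LV and 887150.0 to 1053670.0 in the RV. Myh7, the slow myosin heavy chain of the fetal ventricle, was at 3862, 4281, 4894, 4747 and 4893 in the LV and 2756, 2884, 3643, 4148 and 3860.5 in the RV. The LV was higher in all 5 animals, 1.35-fold on average (-0.44 ± 0.05 SE, adjusted p = 6.90e-07), with overlapping ranges. Its antisense partner Mhrt overlaps it, and the strand used in counting is not stated. Differences in the other members were under 0.25 log2: the alpha-actinin gene Actn2 -0.20 (adjusted p = 4.19e-05), the essential light chain Myl3 -0.17 (adjusted p = 2.16e-05), Ldb3 -0.18, Myom1 -0.16, Mybpc3 -0.14, cardiac actin Actc1 -0.12 and the fast myosin Myh6 -0.08. In Actn2 every LV library nevertheless lay above every RV library. The RV-high members were the light chain kinase Mylk3 (0.29, adjusted p = 0.00129) and smooth muscle actin Acta2 (0.36, adjusted p = 0.0103). Acta2 lies in vessel walls too and did not pass without animal 9 (adjusted p = 0.0977). It was RV-high in 4 animals, with -0.03 in animal 12, and Myh6 was LV-high in 4, with 0.01 in animal 13.

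Of the heat shock genes, 3 small heat shock proteins were LV-high. Hspb7, a chaperone of the sarcomere, was at 42909, 44121, 45363, 41149.7 and 49613 in the LV and 36768, 34929, 35622, 38925 and 39929 in the RV. No RV library reached the lowest LV library (-0.29 ± 0.03 SE, adjusted p = 3.10e-07). Hspb6 (-0.29, adjusted p = 2.32e-04) and Cryab (-0.15, adjusted p = 0.00383) differed in the same direction, and both overlap other genes in part. These 3 were the only called members among 18 heat shock genes tested, whose median was 0.01, and the related Hspb1 (-0.11, adjusted p = 0.355) and Hspb8 (0.11, adjusted p = 0.618) did not pass. The calcium sensor S100a1 was the only called member among 18 genes of calcium handling (-0.31 ± 0.05 SE, adjusted p = 8.13e-04), and the other 17 did not pass.

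Genes of energy metabolism differed by small amounts, in most cases toward the LV. Of 38 nuclear respiratory chain genes 6 were LV-high and 0 RV-high (median -0.08), and only 2 of the 38 had a positive difference. Cox6a2, the muscle isoform of a cytochrome oxidase subunit, differed by -0.20 (adjusted p = 2.04e-04), Cox4i1 by -0.17, Sdhb by -0.16, Atp5a1 by -0.10 and Atp5b by -0.11. Without centring only 2 respiratory genes passed, and 3 did without animal 9, 10 or 13 or with edgeR. Single calls were lost for Cox4i1 without animal 10 (adjusted p = 0.0623), Sdhb without animal 12 or 13 (adjusted p = 0.0643 to 0.0804) and Atp5a1 without animal 9, 10 or 12 (adjusted p = 0.0513 to 0.102). Of 33 genes of fatty acid uptake and oxidation 5 were LV-high and 1 RV-high (median -0.09). The fatty acid carrier Fabp3 (-0.15, adjusted p = 2.24e-04) and the trifunctional protein subunit Hadhb (-0.20, adjusted p = 9.94e-04) were among those LV-high, and the uncoupling protein Ucp2 was the RV-high member (0.22, adjusted p = 0.0430). Both creatine kinases that passed were LV-high, with cytosolic Ckm at 21254 ± 1993 normalized counts in the LV and 18821 ± 2657 in the RV (-0.21 ± 0.03 SE, adjusted p = 4.15e-05) and mitochondrial Ckmt2 at 5115 ± 497 normalized counts in the LV and 4263 ± 545 in the RV (-0.30 ± 0.04 SE, adjusted p = 8.10e-05). Of 25 glycolysis genes 3 were LV-high, Aldoa (-0.23, adjusted p = 4.42e-05), Pgam2 (-0.20, adjusted p = 0.00244) and Gapdh (-0.14, adjusted p = 0.0468), and Gapdh lost its call in turn with each animal left out (adjusted p = 0.0688 to 0.201).

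Collagens and other fibroblast genes were higher in the RV. Of 22 tested fibroblast markers 10 were RV-high and 0 LV-high, with a median of 0.24, and 21 of the 22 had a positive difference. Col3a1, a fibrillar collagen, was at 25616, 23253, 24660.5, 20876 and 20086 normalized counts in the LV and 36157, 31936, 34942, 26772 and 27672 in the RV. All 5 RV libraries lay above all 5 LV libraries, and the ratio was 1.34 (0.42 ± 0.03 SE, adjusted p = 2.11e-11). Col1a1 (0.39 ± 0.03 SE, adjusted p = 1.39e-08) and Col1a2 (0.40 ± 0.04 SE, adjusted p = 1.87e-07), the 2 chains of type I collagen, showed the same separation. Postn, a matricellular protein of fibroblasts and valves, was at 12899.9 ± 1054 normalized counts in the LV and 18791 ± 3239 in the RV (0.50 ± 0.05 SE, adjusted p = 2.46e-05). Tnc, tenascin C, had the largest ratio in the list, 2.22, at 174, 147, 228, 211 and 157 in the LV and 497, 316, 601, 314 and 404 in the RV (1.15 ± 0.13 SE, adjusted p = 1.62e-06). Every RV library of Tnc was above every LV library, with the smallest step in animal 12. Dpt (0.33), Fn1 (0.25), Dcn (0.18), Lum (0.20) and the fibroblast receptor Pdgfra (0.33) also passed, but Dcn not without animal 9 (adjusted p = 0.111). Tcf21, a fibroblast transcription factor, was higher in the RV of all 5 animals without passing (0.33, adjusted p = 0.114), and Vim, an intermediate filament of mesenchyme, did not pass (0.12, adjusted p = 0.127).

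The summed level of the 22 fibroblast markers was 78278 to 92350.2 in the LV and 97161 to 128240.0 in the RV, higher in the RV in 5 of 5 animals, with none of the markers at 0. In bulk tissue, more cells of a type and more RNA per cell cannot be told apart, and the part of fibroblast number in these differences was not tested. Among 21 elastic fibre and proteoglycan genes 8 were RV-high and 0 LV-high (median 0.31), with 4 called without animal 9 and 5 without animal 13. Ogn, a small proteoglycan, was at 2708, 2786, 2894, 2727 and 2687 in the LV and 3833, 3826, 3839.7, 3659 and 3542 in the RV. Its libraries did not overlap and its within-animal differences lay between 0.37 and 0.47 (0.41 ± 0.04 SE, adjusted p = 6.90e-07). Aspn (0.31), versican Vcan (0.39), fibrillin Fbn2 (0.40), Fbln1 (0.47), Ltbp1 (0.33), Mfap2 (0.50) and Mfap4 (0.31) made up the rest of the 8. Aspn lies within a neighbouring gene's exons in part, so its reads may be shared.

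The 250 bases before the annotated start are printed here for 4 called genes: the natriuretic peptide gene Nppa, the chaperone gene Hspb7, the collagen gene Col3a1 and the decarboxylase gene Ddc. They are RefSeq promoter windows on GRCm38.p6, written 5′ to 3′ on the gene's strand, at chr4:148000472-148000721 (+) for Nppa, chr4:141420529-141420778 (+) for Hspb7, chr1:45311288-45311537 (+) for Col3a1 and chr11:11898145-11898394 (-) for Ddc. Capitals mark matches, on either strand, to 5 motifs: the core promoter box TATAAA, the NF-Y motif CCAAT, the TEAD motif CATTCC, the motif AGATAA of GATA factors and the T-box factor motif AGGTGTGA.
Nppa: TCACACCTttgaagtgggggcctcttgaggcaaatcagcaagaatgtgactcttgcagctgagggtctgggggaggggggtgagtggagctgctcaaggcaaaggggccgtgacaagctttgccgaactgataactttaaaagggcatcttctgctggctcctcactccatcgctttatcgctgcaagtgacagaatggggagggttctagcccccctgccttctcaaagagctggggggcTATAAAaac
Hspb7: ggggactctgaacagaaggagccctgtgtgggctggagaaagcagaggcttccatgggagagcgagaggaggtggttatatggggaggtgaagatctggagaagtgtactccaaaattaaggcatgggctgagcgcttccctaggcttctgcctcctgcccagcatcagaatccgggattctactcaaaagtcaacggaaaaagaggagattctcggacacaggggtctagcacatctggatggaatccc
Col3a1: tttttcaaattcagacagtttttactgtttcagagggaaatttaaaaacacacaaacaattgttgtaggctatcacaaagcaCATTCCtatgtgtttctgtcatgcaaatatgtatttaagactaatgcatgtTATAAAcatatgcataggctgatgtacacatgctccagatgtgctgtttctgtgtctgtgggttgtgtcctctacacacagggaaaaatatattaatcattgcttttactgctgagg
Ddc: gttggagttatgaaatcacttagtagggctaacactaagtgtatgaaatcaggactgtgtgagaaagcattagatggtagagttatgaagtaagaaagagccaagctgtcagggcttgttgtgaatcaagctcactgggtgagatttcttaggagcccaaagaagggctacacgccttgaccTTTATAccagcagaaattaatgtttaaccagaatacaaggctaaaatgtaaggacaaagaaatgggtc
Nppa held the T-box letters on the reverse strand, starting 250 bases before the start, and TATAAA 9 bases before it. Col3a1 held CATTCC 168 and TATAAA 117 bases before its start, Ddc held TATAAA on the reverse strand 68 bases before its start, and none of the 5 motifs was in the Hspb7 window. Among 32851 windows of this length, TATAAA was in 12.37%, CCAAT in 33.85%, CATTCC in 12.64%, AGATAA in 9.988% and AGGTGTGA in 1.12%. A match describes letters in a window, and binding there was not measured.

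Aqp4, the water channel that was named as a marker, had the smallest p of the water channels tested. It was at 886, 509.8, 642, 589.7 and 548 normalized counts in the LV and 1866, 1365, 1206, 1452 and 1472 in the RV. The RV was higher in all 5 animals by 0.88 to 1.40 log2, with no overlap between the ventricles (2.29-fold; 1.19 ± 0.07 SE, adjusted p = 2.11e-11). The gene (ENSMUSG00000024411) lies at 15389496 to 15410982 of chromosome 18 in mm10. The other aquaporins did not pass: Aqp1 (-0.22, adjusted p = 0.193), which is made by endothelium, Aqp7 (-0.30, adjusted p = 0.460), a glycerol channel, and Aqp11 (0.15, adjusted p = 0.917).

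Where either ventricle averaged 50 normalized counts or more, the largest RV-high call was that of Drd2, the D2 dopamine receptor, a gene of low level. Its values were 9.74, 9.66, 14.2, 3.23 and 9.69 in the LV and 59.5, 13.2, 76.2, 86.6 and 75.1 in the RV. The RV of animal 10 stayed within the LV range while the other 4 RV libraries were at 59.5 to 86.6 (5.49-fold; 2.46 ± 0.43 SE, adjusted p = 8.68e-04). Ddc, the decarboxylase that makes dopamine and serotonin, was at 219, 396, 207, 332 and 172 in the LV and 664, 848, 856, 758 and 808 in the RV. All RV libraries lay above all LV libraries (3.02-fold; 1.60 ± 0.14 SE, adjusted p = 2.19e-06). The neighbouring imprinted gene Grb10 did not pass (-0.04, adjusted p = 0.762). Of the other catecholamine genes, which were looked up after these values were seen, Th, the first enzyme of dopamine synthesis, had 2 reads in all 5 LV libraries together and 0 in the RV, where 3 reads, the limit that a count of 0 allows in a library, would be 2.38 to 3.52 normalized counts. Dbh, which turns dopamine into noradrenaline, had higher values in the RV of 4 animals and did not pass (0.72, adjusted p = 0.103), and the D1 receptor Drd1 had 5 reads in the LV and 4 in the RV.

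**Figure D2:**
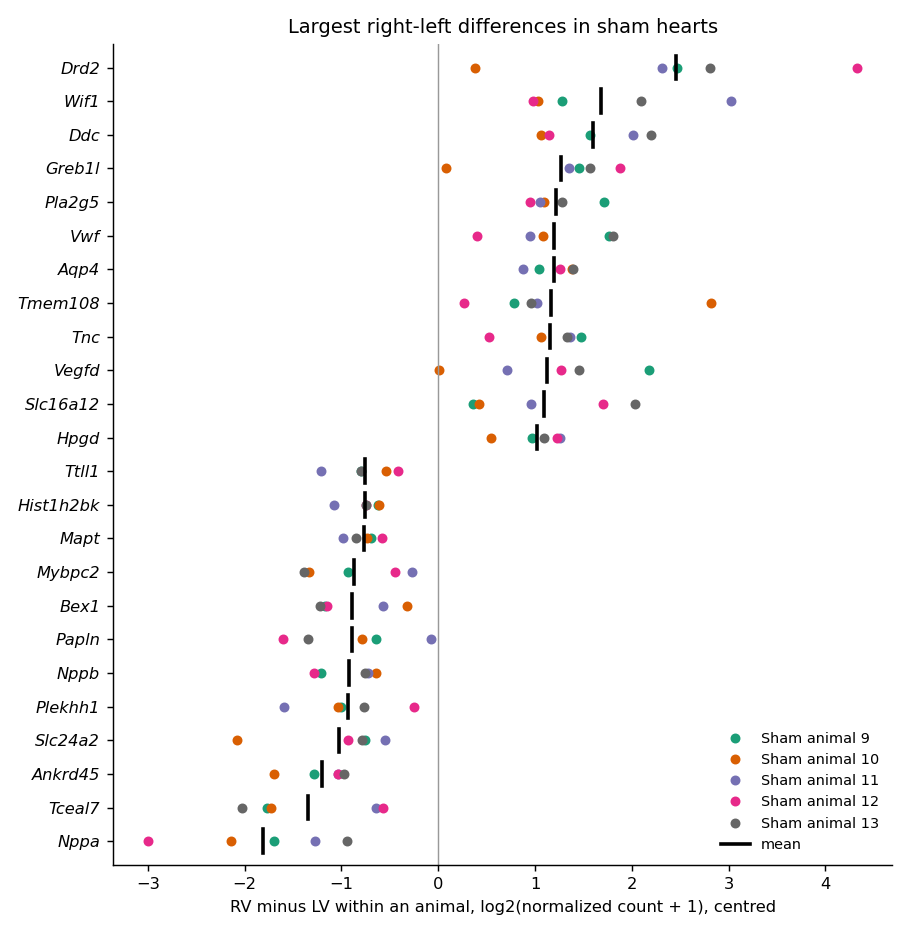
RV minus LV difference within each of the 5 sham animals (horizontal axis, log2 of normalized count plus 1, centred; points by animal, black bar the mean) for the 12 largest RV-high and 12 largest LV-high called genes. All points of the upper 12 genes are above 0 and all points of the lower 12 below 0, while the spread among animals is widest for Drd2, from 0.38 to 4.33.

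The remaining largest RV-high genes were of several kinds. Wif1, a secreted WNT inhibitor, was at 72.1, 93.0, 19.3, 54.9 and 36.6 in the LV and 179, 195, 167, 113 and 163 in the RV. Its libraries did not overlap, with the largest step in animal 11 (1.68 ± 0.24 SE, adjusted p = 7.04e-05). Von Willebrand factor (Vwf), a clotting protein of venous and endocardial endothelium, was at 126 ± 46.9 normalized counts in the LV and 283 ± 50.7 in the RV (1.20 ± 0.17 SE, adjusted p = 5.31e-05), and the secreted phospholipase Pla2g5 at 59.95 ± 13.0 normalized counts in the LV and 146 ± 43.0 in the RV (1.22 ± 0.19 SE, adjusted p = 2.65e-04). Greb1l (1.27), Tmem108 (1.17), the lymphatic growth factor Vegfd (1.12), the transporter Slc16a12 (1.10) and the prostaglandin-degrading enzyme Hpgd (1.02) had means under 100 normalized counts in both ventricles. Each of these 5 lost its call with some animals left out: Greb1l without animal 9, 12 or 13 (adjusted p = 0.0873 to 0.111), Tmem108 without animal 9, 10 or 13 (adjusted p = 0.0783 to 0.220), Vegfd without animal 9, 12 or 13 (adjusted p = 0.0739 to 0.174), Slc16a12 without animal 11, 12 or 13 (adjusted p = 0.0645 to 0.281) and Hpgd without animal 9, 11, 12 or 13 (adjusted p = 0.0953 to 0.132).

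Among the largest LV-high differences after Nppa were those of the transcription elongation factor-like Tceal7 and of Bex1, 2 related X-linked genes. Tceal7 was at 76.9, 138, 65.0, 86.1 and 82.9 in the LV and 22.3, 41.7, 42.1, 59.3 and 19.95 in the RV (-1.35 ± 0.26 SE, adjusted p = 0.00288), and Bex1 at 106 ± 23.2 normalized counts in the LV and 59.3 ± 17.2 in the RV (-0.89 ± 0.21 SE, adjusted p = 0.0213). The LV libraries of both lay above the RV libraries, but they share exon positions, so reads may be divided between them. Mapt, the microtubule protein tau, was at 250.3, 222, 219, 208 and 230.4 in the LV and 157, 136, 113, 143 and 130.3 in the RV. Its ventricles did not overlap (-0.77 ± 0.14 SE, adjusted p = 0.00138), and neither did those of Ttll1, a tubulin glutamylase (-0.75 ± 0.12 SE, adjusted p = 2.32e-04). Plekhh1 (-0.93 ± 0.13 SE, adjusted p = 5.85e-05), the sodium-calcium-potassium exchanger Slc24a2 (-1.02 ± 0.19 SE, adjusted p = 0.00198), Ankrd45 (-1.20 ± 0.26 SE, adjusted p = 0.00859), Papln (-0.89 ± 0.23 SE, adjusted p = 0.0390) and the histone gene Hist1h2bk (-0.76 ± 0.18 SE, adjusted p = 0.0151) were LV-high in all 5 animals with overlapping ranges. Hist1h2bk has close copies among which reads could be split. Calls that ended when an animal was left out were those of Bex1 without animal 9, 12 or 13 (adjusted p = 0.0863 to 0.155), Ankrd45 without animal 9 or 10 (adjusted p = 0.0549 to 0.0587), Papln without animal 9, 10, 12 or 13 (adjusted p = 0.104 to 0.231) and Hist1h2bk without animal 11, 12 or 13 (adjusted p = 0.0528 to 0.0906). Lrrc2 (-0.73, adjusted p = 1.87e-07) and prostaglandin D synthase Ptgds (-0.75, adjusted p = 1.87e-07), singled out after their values were seen for their small p, were also LV-high in 5 of 5 animals.

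Genes known to set up chamber identity in the embryo were tested next. Of 3 tested genes of the left ventricle and first heart field and 7 of the second heart field and outflow tract, 0 passed. Tbx5, a T-box factor of the LV, was at 334, 358, 278, 207 and 239 in the LV and 281, 269.7, 214, 186 and 229 in the RV. It was lower in the RV of all 5 animals, but the ranges overlapped and it did not pass (-0.28 ± 0.12 SE, adjusted p = 0.309). Hand2, a basic helix-loop-helix factor of the RV, had within-animal differences of 0.35, 0.24, 0.09, -0.05 and 0.00 and did not pass (0.12 ± 0.09 SE, adjusted p = 0.678), and it overlaps the transcript Hand2os1. Hand1, its LV counterpart, had 13 reads in the 5 LV libraries together and 0 reads in the 5 RV libraries. It was below the level needed for the test and at 0 in 2 LV libraries as well. Isl1 and Fgf8 had 0 reads in all 10 libraries. The other members did not pass either: Cited1 (0.35, adjusted p = 0.288), Hcn4 (-0.22, adjusted p = 0.905), the semaphorin Sema3c (-0.00, adjusted p = 0.995), its receptor Nrp2 (-0.22, adjusted p = 0.0569), Bmp4 (0.25, adjusted p = 0.456), Foxc1 (0.22, adjusted p = 0.701), Mef2c (-0.06, adjusted p = 0.803) and Rspo3 (1.18, adjusted p = 0.549). Nrp2 was LV-high in all 5 animals and passed in 5 of 16 alternative settings, among them edgeR (adjusted p = 0.0470) and DESeq2 (adjusted p = 0.0389), while over all 16 its adjusted p ran from 0.0320 to 0.516. The sign of Sema3c, Hcn4 and Mef2c changed with other settings.

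Of 29 cardiac transcription factors tested, Meis2 and Tbx20 passed, both RV-high. Meis2, a homeobox factor, was at 319, 377, 496, 410.0 and 377 in the LV and 469, 618, 620.0, 527 and 486 in the RV. Each animal's RV was the higher (0.43 ± 0.09 SE, adjusted p = 0.00685). Tbx20 differed by only 0.14 (adjusted p = 0.0476), and both lost their calls with fewer animals: Meis2 without animal 10 (adjusted p = 0.0731) and Tbx20 without animal 9, 10, 12 or 13 (adjusted p = 0.0940 to 0.251). The list median was -0.06.

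Ion channel genes showed a few larger differences among many small ones. Of 14 conduction system markers 3 were RV-high (median 0.18), with the other 11 not passing and Isl1 at 0. Etv1, a transcription factor of fast conducting muscle, was at 229.8, 196, 267, 202 and 171 in the LV and 401, 349.7, 424, 438 and 373 in the RV. No LV library reached the RV libraries (0.87 ± 0.11 SE, adjusted p = 1.96e-05). The sodium channel Scn10a was at 13.3 ± 5.17 normalized counts in the LV and 41.7 ± 6.00 in the RV (1.64 ± 0.36 SE, adjusted p = 0.0106) and the T-type calcium channel Cacna1g at 249.7 ± 94.0 normalized counts in the LV and 381 ± 69.3 in the RV (0.65 ± 0.13 SE, adjusted p = 0.00547). Of 19 potassium channel genes, Kcnd2, a pore subunit of the transient outward current, was RV-high, at 119.8, 91.8, 81.2, 138 and 102 in the LV and 182, 223, 184, 231 and 246 in the RV. Its RV libraries all lay above the LV libraries (0.98 ± 0.16 SE, adjusted p = 3.52e-04). Kcnip2, the accessory subunit of that current, was LV-high by a smaller amount (-0.34 ± 0.08 SE, adjusted p = 0.0257). With animals left out, calls were lost for Scn10a without animal 11 or 13 (adjusted p = 0.0565 to 0.0712), Cacna1g without animal 10 (adjusted p = 0.0811) and Kcnip2 without animal 9, 11, 12 or 13 (adjusted p = 0.0530 to 0.152).

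Growth factor and signalling genes that passed were RV-high with 1 exception. Of 25 WNT genes 2 passed, Wif1 and the secreted inhibitor Sfrp1 (0.56 ± 0.10 SE, adjusted p = 7.77e-04). Of 31 genes of the TGF-beta and BMP pathway 2 passed, the ligand Tgfb2 (0.56 ± 0.11 SE, adjusted p = 0.00244) and the binding protein Fstl1 (0.18, adjusted p = 0.0209). Of 27 genes of FGF, IGF and neuregulin signalling 4 passed: the ligands Igf1 (0.27, adjusted p = 0.0113), Igf2 (0.16, adjusted p = 0.00844) and Fgf1 (0.29, adjusted p = 0.0478) and the neuregulin receptor Erbb4 (0.32, adjusted p = 0.0177). Only 1 of these 4 passed without animal 9, 10 or 13, and calls were lost for Igf1 without animal 10 or 11 (adjusted p = 0.0745 to 0.0931), Igf2 without animal 9 or 13 (adjusted p = 0.0669 to 0.119), Fgf1 without animal 9, 10, 12 or 13 (adjusted p = 0.0809 to 0.285) and Erbb4 without animal 9, 10, 11 or 13 (adjusted p = 0.0512 to 0.110). Among 34 guidance genes Sema3a (0.99, adjusted p = 0.0159), Slit2 (0.54, adjusted p = 0.0224) and Epha7 (0.50, adjusted p = 0.00926) were RV-high and the netrin Ntn1 was LV-high. Ntn1 was at 859, 869.7, 875, 889.9 and 748 in the LV and 709, 652, 699, 647 and 541 in the RV. Its libraries did not overlap (-0.42 ± 0.07 SE, adjusted p = 7.77e-04), and it kept its call whichever animal was left out, whereas no RV-high guidance gene did so. Among 29 adrenergic, muscarinic and peptide signalling genes Npr3, the G-protein regulator Rgs2 (0.34, adjusted p = 0.00696), the receptor partner Ramp1 (0.64, adjusted p = 0.0167) and endothelin Edn1 (0.75, adjusted p = 0.0483) were RV-high, and 1 passed without animal 9 or 13, with calls lost for Rgs2 without animal 9 or 13 (adjusted p = 0.0614 to 0.0667), Ramp1 without animal 9, 10 or 13 (adjusted p = 0.0754 to 0.203) and Edn1 without animal 9, 10, 12 or 13 (adjusted p = 0.0977 to 0.228). Leaving out animals ended the calls of Tgfb2 without animal 13 (adjusted p = 0.0522), Fstl1 without animal 9, 11 or 13 (adjusted p = 0.0542 to 0.196), Sema3a without animal 9, 12 or 13 (adjusted p = 0.0526 to 0.0892), Slit2 without animal 10, 12 or 13 (adjusted p = 0.0584 to 0.165) and Epha7 without animal 9 or 13 (adjusted p = 0.0517 to 0.0596).

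Imprinted growth genes, a network expressed from 1 parental copy that falls in level after birth, were RV-high where they passed. Of 16 tested, 6 were RV-high and 0 LV-high (median 0.24), with 3 called without animal 9 and 4 without animal 13. H19, a noncoding RNA of the Igf2 locus, was at 1949.7, 2256, 1860.5, 1716 and 1517 in the LV and 2666, 2917, 2210.0, 2295 and 2446 in the RV. The RV was higher in each animal although the ranges overlapped (0.40 ± 0.06 SE, adjusted p = 4.15e-05). Peg3 (0.32, adjusted p = 0.00186), Plagl1 (0.30, adjusted p = 0.00796), the noncoding Meg3 (0.82, adjusted p = 0.0302), Igf2 and Dcn were the others. Dcn is also among the fibroblast markers above and Meg3 among the RNA quality markers below. Expression by parental copy was not measured. Dlk1, which shares a locus with Meg3, had lower RV values in 4 animals and did not pass (-0.59, adjusted p = 0.385).

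**Figure D3:**
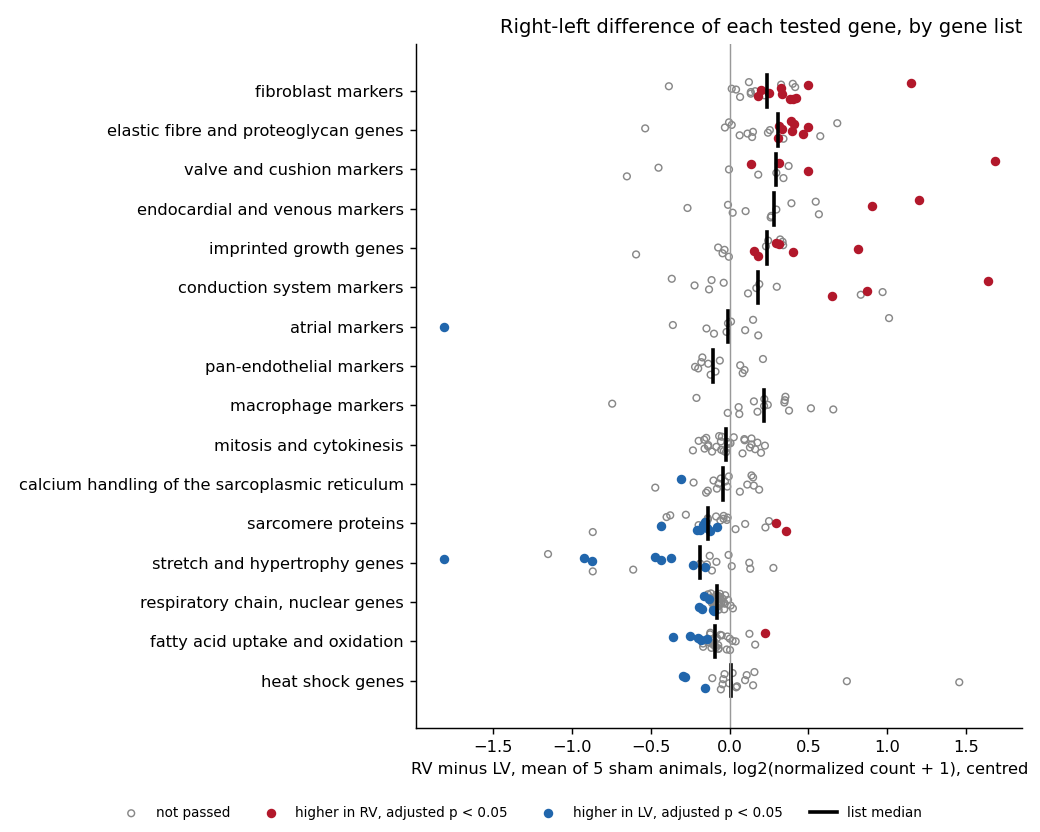
Mean RV minus LV difference over 5 sham animals (horizontal axis, log2 of normalized count plus 1, centred) of each tested gene in 16 gene lists, red where called higher in the RV, blue where called higher in the LV and open where not passed, with the list median as a bar. Fibroblast markers lie almost wholly to the right with a median of 0.24, and stretch genes and sarcomere genes to the left with medians of -0.19 and -0.14.

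Of 6 tested markers of RNA quality, Meg3 was RV-high and the noncoding RNAs Rn7sk (-0.24, adjusted p = 5.18e-04) and Rmrp (-0.30, adjusted p = 0.0219) were LV-high, while the nuclear Malat1 (0.15, adjusted p = 0.372) and Neat1 (0.22, adjusted p = 0.495) did not pass. Their summed level was 27968 to 39603 in the LV and 30412 to 37043 in the RV, higher in the RV in 3 of 5 animals, and the part of RNA quality in the differences was not tested. Markers of the other cell types of the heart were read in the same way. Pericyte and smooth muscle markers had 1 RV-high member (Acta2) and 1 LV-high member (Des) among 16 tested, with a median of -0.04. Their summed level was higher in the RV in 2 of 5 animals. Arterial endothelial markers had 0 called members among 13 tested (median -0.05), with the sum higher in the RV in 3 of 5 animals. Of 12 pan-endothelial markers 0 passed (median -0.10, summed level 13669 to 15592 in the LV and 13384 to 15608 in the RV), with Pecam1 at -0.06 and Cdh5 at -0.12. After centring, that sum was higher in the RV in 0 of 5 animals, and 4 of the 12 markers had a positive difference. Endocardial and venous markers summed to 1939.7 to 2366 in the LV and 2555 to 3132 in the RV, higher in the RV in 5 animals, where Vwf and Npr3 passed among 12. Valve and cushion markers summed to 19178 to 22029 in the LV and 24660.2 to 31899 in the RV, also higher in the RV in 5 animals. Most of that sum was Postn (mean 12900 in the LV and 18791 in the RV), also a fibroblast marker, and Tbx20 (5883 and 6617). Postn, Wif1, Tbx20 and Thbs2 passed among 11, with 2 called without animal 9, 10, 12 or 13, where Tbx20 and Thbs2 did not pass. Epicardial markers summed to 1889 to 3041 in the LV and 2045 to 2972 in the RV, and of 13 the retinoic acid enzyme Aldh1a2 (0.34, adjusted p = 0.0224) and the mesothelial mucin Muc16 (0.76, adjusted p = 0.0492) passed, though neither did so without animal 9, 10, 12 or 13. Schwann and neuronal markers summed to 305 to 428 in the LV and 423 to 521 in the RV. Only the glial receptor Gfra3 passed among 9 tested, at a mean of 11.8 in the LV and 38.2 in the RV. It was RV-high (1.64 ± 0.39 SE, adjusted p = 0.0179), but not without animal 10 or 11 (adjusted p = 0.0737 to 0.123). Lymphatic markers summed to 2748 to 3400 in the LV and 2717 to 3610 in the RV. Mmrn1 was the only called member among 6 tested and was RV-high (0.88, adjusted p = 0.0190), but not without animal 9, 10 or 12 (adjusted p = 0.0588 to 0.119). Of 16 macrophage markers 0 passed (median 0.22; summed level 1797 to 2276 in the LV and 1838 to 3048 in the RV), although 13 had a positive difference. The part of these cell types in the differences above was not tested.

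Atrial markers varied between libraries more than between ventricles. Myl7, the atrial regulatory light chain, was at 282, 836, 894, 374 and 935 in the LV and 1205, 213, 1775, 72.0 and 1505 in the RV. The RV was above the LV in animals 9, 11 and 13 and below it in animals 10 and 12. Myl4, the atrial essential light chain, and the calcium pump regulator Sln had the same order in every animal, and none of the 3 passed (-0.15, adjusted p = 0.977 for Myl7, 0.10, adjusted p = 0.972 for Myl4 and 0.15, adjusted p = 0.922 for Sln). Nppa was the only called member of 11 atrial markers, and it was LV-high in all 5 animals. With the Myl7 difference of each animal as a covariate, 174 genes were RV-high and 121 LV-high, and 266 of the 272 calls were shared. This setting was added after these values were seen. It reads each gene at equal Myl7 levels in LV and RV, and the Myl7 differences averaged -0.15. Its estimates were therefore bound to lie near the main ones, and it cannot show what atrial tissue contributed. The part of atrial tissue in the differences was not tested.

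**Figure D4:**
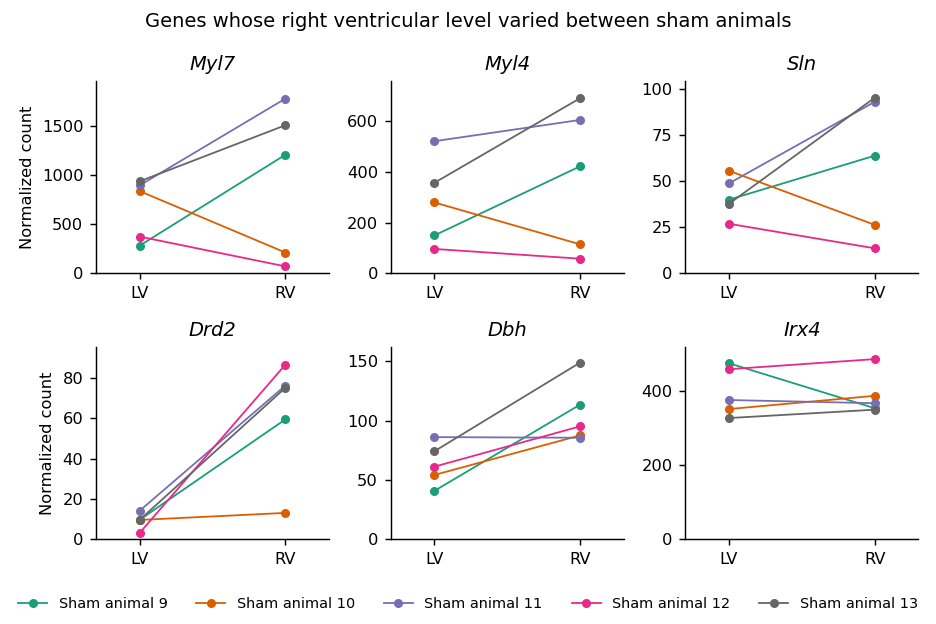
Normalized counts (vertical axes, starting at 0) in the LV and RV of each of the 5 sham animals for 3 atrial markers, the dopamine genes Drd2 and Dbh and the ventricular factor Irx4. The atrial markers rise from LV to RV in animals 9, 11 and 13 and fall in animals 10 and 12, while Drd2 rises in animal 12 and barely in animal 10.

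Proliferation genes did not separate the ventricles. Of 29 genes of S phase and DNA replication and 30 of mitosis and cytokinesis 0 passed (medians -0.08 and -0.02). Mki67, a marker of cycling cells, was at 2259, 2108, 3445, 2579 and 3232 in the LV and 2133, 1748, 4174, 2868 and 2835 in the RV. The animals differed from each other more than their ventricles did, and the RV was higher in 2 of 5 (-0.05 ± 0.06 SE, adjusted p = 0.812). With limma without the variance trend and robust options no gene in the whole comparison passed, while 1280 had an unadjusted p under 0.05, and edgeR and DESeq2 on the recovered reads gave 280 and 290 calls.

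Whether these chamber differences were of the same size after banding was tested as the nPAB minus sham difference in RV minus LV, with the 5 sham and 4 nPAB animals. The animals nPAB 6 and 7 were left out because their LV and RV libraries had different sexes. Of 13614 genes 501 passed (3.68%), 257 with a positive difference (1.89%) and 244 with a negative one (1.79%). With all 6 nPAB animals 146 passed. The sham values that chose the chamber genes also enter this test, so the counts that follow describe these genes and lend the differences no independent support. Of the 158 RV-high genes with a test 57 passed, all of them negative, and of the 112 LV-high genes 50 passed as positive and 4 as negative. The median difference went from 0.48 in sham to 0.03 in nPAB for RV-high genes and from -0.29 to 0.00 for LV-high genes. All 4 nPAB animals kept the sham direction in 35 RV-high and 20 LV-high genes, and all 4 had the opposite direction in 29 and 36. Among all tested genes, 11.8% were higher in the RV of all 4 nPAB animals and 11.5% higher in the LV of all 4.

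Some of the LV-high genes of the stretch and hypertrophy list had the opposite direction in banded hearts, and others were near 0 or mixed. Nppa, with sham differences of -1.70, -2.14, -1.27, -2.995 and -0.94 in animals 9 to 13, had 1.74, 1.20, 2.27 and 2.77 in nPAB animals 5, 8, 10 and 11. All 4 nPAB animals were RV-high where all 5 sham animals were LV-high (nPAB minus sham 3.81 ± 0.49 SE, adjusted p = 0.00549). Nppb (nPAB mean 0.95, nPAB minus sham 1.88 ± 0.15 SE, adjusted p = 5.41e-07) and Des (0.75, 0.99 ± 0.09 SE, adjusted p = 1.19e-06) behaved alike. So did Xirp2, which had not passed in sham (1.53, 2.68 ± 0.28 SE, adjusted p = 0.00201), and the calcium handling gene S100a1 (0.82, 1.13 ± 0.09 SE, adjusted p = 4.25e-10). Myh7 had 0.07, -0.36, -0.27 and 0.18 in the 4 nPAB animals and Mybpc2 -0.03, 0.29, 0.87 and -0.58, with both signs in each gene, and Nrap had a mean of 0.08. Hspb6 (0.35), Cryab (0.41), Aldoa (0.29), Pgam2 (0.27) and Gapdh (0.51) were also RV-high on average in nPAB, and their differences from sham passed. Plekhh1 and Ntn1, by contrast, were LV-high in sham and further LV-high in nPAB, at -2.75 (-1.82 ± 0.29 SE, adjusted p = 0.00109) and -0.87 (-0.45 ± 0.11 SE, adjusted p = 0.0195).

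Of the RV-high genes, Aqp4 was reversed, with -1.69, -1.08, -1.52 and -2.75 in the 4 nPAB animals against 1.04, 1.39, 0.88, 1.25 and 1.40 in sham. None of the values overlapped (nPAB minus sham -2.95 ± 0.29 SE, adjusted p = 3.86e-04). Pla2g5 (-1.07; -2.28 ± 0.37 SE, adjusted p = 2.19e-04), Cacna1g (-1.18; -1.83 ± 0.21 SE, adjusted p = 1.99e-06), Ramp1 (-0.75; -1.38 ± 0.24 SE, adjusted p = 4.92e-04) and Rgs2 (-0.73; -1.07 ± 0.19 SE, adjusted p = 0.00318) were LV-high on average in nPAB too. Col3a1 was near 0 in nPAB, at 0.07, -0.06, -0.27 and -0.09, and its difference from sham passed (-0.51 ± 0.06 SE, adjusted p = 2.94e-06), as did those of Ogn (-0.43 ± 0.08 SE, adjusted p = 6.82e-04) and Etv1 (-0.84 ± 0.17 SE, adjusted p = 0.00263). The type I collagen genes did not pass in this test. Col1a1 had an nPAB mean of 0.17 (nPAB minus sham -0.22 ± 0.08 SE, adjusted p = 0.138) and Col1a2 of 0.29 (-0.10 ± 0.08 SE, adjusted p = 0.633). For other genes the RV excess was still present and its difference from sham did not pass. Ddc had 1.46, 1.38, 1.28 and 1.33 in nPAB (nPAB minus sham -0.23 ± 0.19 SE, adjusted p = 0.638), Tnc a mean of 1.04 (-0.11 ± 0.21 SE, adjusted p = 0.883), Npr3 of 0.82 (-0.07 ± 0.18 SE, adjusted p = 0.914), Postn of 0.44 (-0.05 ± 0.15 SE, adjusted p = 0.925) and Tgfb2 of 0.70 (0.14 ± 0.15 SE, adjusted p = 0.747). A p above the threshold does not show that these genes differed equally in sham and nPAB hearts.

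**Figure D5:**
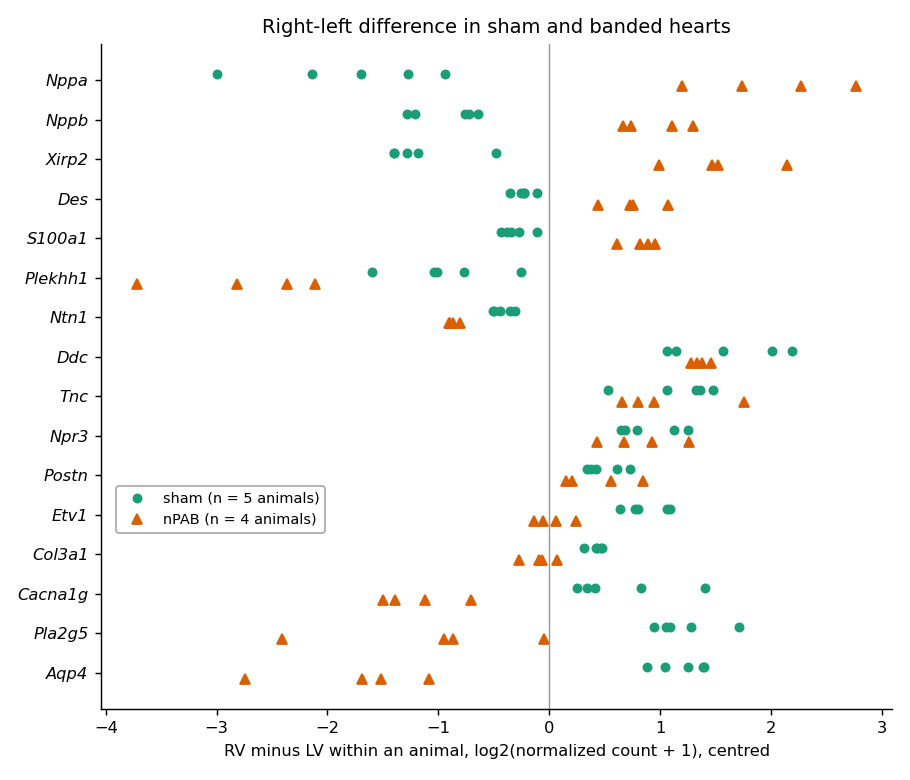
RV minus LV difference within each animal (horizontal axis, log2 of normalized count plus 1, centred) of 16 genes in 5 sham animals (circles) and 4 nPAB animals (triangles). Circles and triangles lie on opposite sides of 0 for Nppa, Nppb, Xirp2, Des, S100a1, Cacna1g, Pla2g5 and Aqp4, and on the same side for Plekhh1, Ntn1, Ddc, Tnc, Npr3 and Postn.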

How the data were processed

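RNA was isolated with a Qiagen RNeasy Plus Mini kit and sequenced after Revelo library preparation, per the labels' protocols. The authors deposited 1 table per ventricle of scaled expression signal, all at or above 0: featureCounts gene counts divided by DESeq2 size factors, on mm10, per the labels and the submitters' processing notes. The sources used here name no aligner, strand setting or version. All values (100%) were, within 0.001, whole multiples of what 1 read is worth, and depths were counted from these reads. Each header line has 2 empty cells before the sample names, so the names were read in order, skipping those cells, and tied to samples through the labels.

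The paired test used limma 3.58.1 (R 4.3.3; lmFit and eBayes, both the trend and the robust option on) on log2(value + 1), RV minus LV per animal, minus the animal's median over the 13335 genes whose mean reached 10 in both tables. It covered the 13680 genes whose mean over the sham libraries reached 10. Tests were two-sided, p-values were adjusted by Benjamini-Hochberg and called under 0.05, and fold changes on this scale understate those of low genes. Numbers in the sample titles pair ventricles of 1 animal: deviations from the ventricle means correlated at 0.126 to 0.330 within an animal and at most 0.0482 between animals. The most similar pair of libraries still differed beyond sampling noise, with a chi-square of 7.37 per degree of freedom. The count tools edgeR 4.0.16 and DESeq2 1.42.0 were alternatives. The animal is the replicate, and litters are not given in the labels used here.

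The comparison and the 52 gene lists, 36 of them used to name genes, were chosen with earlier results of these data known. Genes were named by rule: Aqp4 and Xirp2, the tested chamber field genes, the 12 largest called differences each way (mean of at least 50 in at least 1 ventricle, the same sign in 5 animals, provisional symbols passed over) and from each of those 36 lists, up to 4 called members ranked by p. The rule as first written took list members by smallest p, called or not. Its restriction to called members was added after the values were seen, and the uncalled and other genes named as context were chosen then too. Gene bounds are from GENCODE, and figures were drawn with matplotlib 3.10.9.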

Additional observations from a re-analysis of the deposited data

Results flagged for a closer look

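In 5 genes a single sham animal lay far from the other 4 in its RV minus LV difference. These were Xirp2 in animal 11 (-0.48, against -1.19 to -1.40 in the others), Nrap in animal 11 (-0.26), Hist1h2bk in animal 11 (-1.08), Slc24a2 in animal 10 (-2.08) and Mef2c in animal 9 (-0.40). By chance about 1 in 20 groups of this size is picked out, and 98 named genes were examined.

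In 39 named genes the RV minus LV difference of nPAB animals differed from that of sham animals at an adjusted p under 0.05 (limma). The nPAB minus sham value, in log2, was positive in 21: Nppa 3.81, Xirp2 2.68, Tceal7 1.97, Nppb 1.88, Bex1 1.84, Ankrd45 1.46, S100a1 1.13, Mybpc2 1.01, Mapt 0.99, Des 0.99, Gapdh 0.65, Hspb6 0.64, Cryab 0.57, Aldoa 0.53, Pgam2 0.47, Nrap 0.46, Myh7 0.34, Hspb7 0.28, Fabp3 0.27, Actn2 0.26 and Ckm 0.22. It was negative in 18: Aqp4 -2.95, Pla2g5 -2.28, Cacna1g -1.83, Plekhh1 -1.82, Kcnd2 -1.39, Ramp1 -1.38, Cited1 -1.09, Rgs2 -1.07, Sema3c -0.93, Etv1 -0.84, Erbb4 -0.80, Fbn2 -0.67, Fgf1 -0.52, Col3a1 -0.51, Plagl1 -0.48, Ntn1 -0.45, Tbx20 -0.44 and Ogn -0.43. Most of these genes were chosen for their sham difference, which also enters the test.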

How the results depend on the processing

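Alternatives changed the pseudocount, filter, centring, variance model, tool and block, and left out each animal. With limma without trend and robust options 0 genes were RV-high and 0 LV-high, against 160 and 112, and 51 genes differed between nPAB and sham, against 501. With no replicate block, which ignores the pairing by animal, there were 27 RV-high and 14 LV-high genes and 85 differing between nPAB and sham, and 66 of 87 called named genes lost their call. Leaving out each sham animal gave 81 to 137 RV-high and 76 to 105 LV-high genes. For the nPAB comparison, all 6 nPAB animals gave 146 genes, and leaving out 1 animal gave 330 (without nPAB 11) to 597. The tools shared most calls: 262 of 272 with edgeR and 254 with DESeq2. Of 87 called named genes, 46 kept their call in all 14 settings other than those without the variance trend or block, and none reversed. Among uncalled genes, the sign of Sema3c turned with no centring (0.0292), with the Myl7 covariate, chosen after seeing the data (6e-04), and without animal 12 (0.0238) or 13 (0.0287), that of Hcn4 without animal 10 (0.0527) and that of Mef2c without animal 9 (0.0261). With 1 animal left out in turn, Sema3c ranged from -0.039 to 0.0287, Hcn4 from -0.49 to 0.05 and Mef2c from -0.10 to 0.03. The cause of these changes was not tested. With 5 animals and 7.11 to 10.7 M reads per library, genes below a mean of 10 normalized counts, such as Hand1, were not tested.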
